A study of Mus musculus with 12 samples.

Results

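The miR-132 and miR-212 cluster is represented by 4 mature miRNAs, mmu-miR-132-3p, mmu-miR-132-5p, mmu-miR-212-3p and mmu-miR-212-5p (written without the species prefix hereafter), which are both arms of 2 neighbouring hairpins. The members were chosen by name, as all entries of the type mature with one of these 4 identifiers, and they are 4 of the 1374 mature miRNAs counted in at least 1 of 12 small RNA libraries. The set was put together with earlier results of the same libraries known, so its p-values are not independent evidence. Small RNA of 18 to 30 nt was sequenced from the mPFC of adult male C57BL/6 mice 2 h after a conditioned place preference (CPP) test, in which an animal chooses between a chamber paired with drug and one paired with saline. The 4 groups were SS (saline and saline, replicates 12, 13 and 14), CS (cocaine and saline, replicates 8, 9 and 10), MS (methionine, MET, and saline, replicates 3, 4 and 23) and MC (MET and cocaine, replicates 16, 17 and 20). MET, the amino acid from which cells make their methyl donor, was injected 2 times a day at 1 g/kg for 10 days and 1 h before sessions. All 4 groups, SS included, were injected and took the behavioural test, so no group shows the cluster in untreated mice. Each of the 3 libraries of a group was made from RNA pooled from 2 animals.

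The miR-132 and miR-212 hairpins are cut from 1 primary transcript whose promoter is bound by CREB, the transcription factor that switches on genes after synaptic activity. Each hairpin gives a 5p and a 3p arm, of which an Argonaute protein usually keeps one, and the seed of the retained arm pairs with the messages it represses. In the brain the cluster is known for effects on dendrite growth, spines and plasticity, with the GTPase-activating protein p250GAP among the best-known targets of miR-132-3p. A change in bulk tissue cannot separate fewer cells of a type from less RNA per cell.

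The mature sequences show which arms share a seed, and they are printed from RefSeq (GRCm38.p6, the assembly also called mm10) with the seed, bases 2 to 8 from the 5′ end, in capitals. All 4 lie on the + strand of chromosome 11, miR-212-5p at chr11:75173403-75173425, miR-212-3p at chr11:75173443-75173464, miR-132-5p at chr11:75173686-75173707 and miR-132-3p at chr11:75173723-75173744.
miR-132-3p: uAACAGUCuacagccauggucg
miR-212-3p: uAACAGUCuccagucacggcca
miR-132-5p: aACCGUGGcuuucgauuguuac
miR-212-5p: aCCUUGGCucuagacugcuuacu
The 3p arms have the same seed, and among 1679 mature miRNA names in the reference no other miRNA carries it. Their first 9 bases are identical and 17 of 22 bases are the same. The 5 differences, with the base of miR-132-3p first and positions counted from its 5′ end, are A10C, C14U, U17C, U20C and G22A. The 5p arms have different seeds, neither of which is found in another mature miRNA of the reference, and the longest run they share is the 5 bases uggcu. The 3p arms are thus 2 forms of 1 seed family, whereas each 5p arm stands alone.

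The Mir212 hairpin covers chr11:75173388-75173478 and the Mir132 hairpin chr11:75173682-75173747, with 203 nt between them. Both lie in the intron between exon 1 and exon 2 of 1700016P03Rik, a transcript annotated as processed and not as coding, on the same strand (GENCODE M21). The hairpins are shown with their arms in capitals, because the arm that accumulated differed between them.
Mir212: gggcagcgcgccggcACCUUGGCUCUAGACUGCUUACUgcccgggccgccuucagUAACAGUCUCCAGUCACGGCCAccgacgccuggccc
Mir132: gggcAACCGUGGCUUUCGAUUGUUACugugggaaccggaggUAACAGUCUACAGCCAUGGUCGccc

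Counts on miRNAs numbered 4356489 to 7257737 a library and were 56.1% to 67.9% of its total. The libraries were cut into 3 sets by their profiles of miRNA precursor families. The number 3 was a setting, and how well it describes the libraries was not tested. No label explains the split, which cannot be fully told apart from treatment. SS replicate 12 fell with CS replicates 8 and 9 (set A), CS replicate 10 fell with MC replicates 16 and 17 (set C), and set B took all of MS together with SS replicates 13 and 14 and MC replicate 20. Nothing in the labels ties a pool to a litter or day, so the p-values set group differences against the spread between pools. Except where the sets are named as taken into account, that spread includes differences between the sets. All 5 neuronal marker miRNAs, among them miR-124-3p, were counted in every library, with a sum of 103000 to 145623 CPM (a count divided by all counts of its library and multiplied by 1000000) in MC, 123169 to 253915 in MS, 138702 to 244113 in CS and 178560 to 270866 in SS. Summed markers of other tissue were lower in every library, at 152 to 1016 CPM for oligodendrocytes, 2972 to 9877 for endothelium, 4.63 to 195 for leukocytes and microglia, 384 to 3961 for red blood cells, 681 to 2462 for choroid plexus, 9.04 to 2494 for liver and 26.2 to 86.1 for muscle.

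All 4 arms were detected in all 12 libraries. By counts on the mature entries, the cluster was led by the 5p arm of miR-132 and the 3p arm of miR-212. Reads on a precursor family entry, described below, are not part of these levels. The 3p arm of miR-132, the arm most often studied, was less abundant than its partner in every library, with a median ratio of 5p to 3p of 10.4. Over the 12 libraries miR-132-5p averaged 3544 CPM ± 817 (SD, n = 12) and was number 36 among mature miRNAs, between miR-23a-3p at 3612 CPM and miR-27a-3p at 3527 CPM. The mean of miR-212-3p was 2215 CPM ± 446 (SD, n = 12), number 50, between miR-30d-5p at 2250 CPM and miR-23b-3p at 2209 CPM. The mean of miR-132-3p was 416 CPM ± 305 (SD, n = 12), number 100, between miR-484 at 426 CPM and miR-139-3p at 414 CPM. These neighbours lie well within the spread of the members, so the ranks are approximate. The mean of miR-212-5p was 176 CPM ± 221 (SD, n = 12), number 144, between miR-320-3p at 178 CPM and miR-323-5p at 175 CPM. Its median was lower, at 84.2 CPM, and its number ran from 72 to 250 over the 12 libraries. The mature sequences are 22 or 23 nt long, so that levels per length keep this order.

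**Figure D1:**
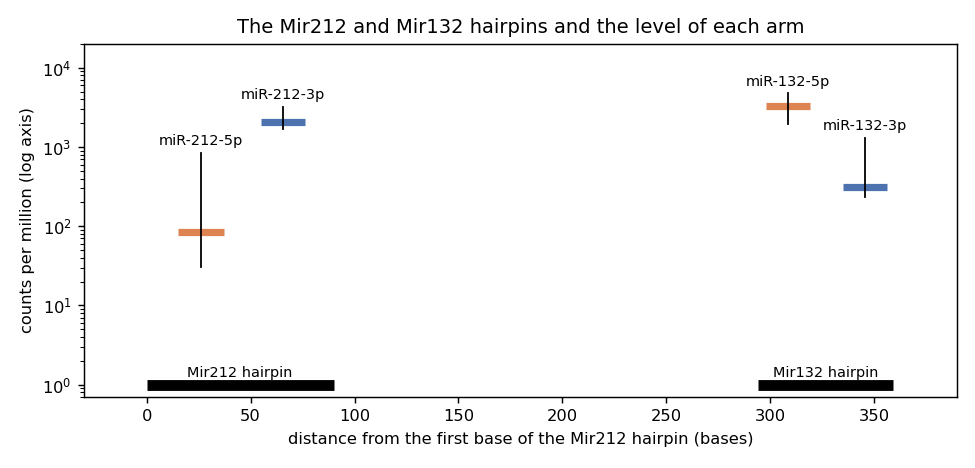
Level of each arm, in CPM on a log axis, against its distance in bases from the first base of the Mir212 hairpin. Coloured segments mark the span of each arm (orange 5p, blue 3p) at its median over the 12 libraries, thin lines run from the lowest to the highest library, and the black bars only mark the hairpins. The higher arm was 3p in Mir212 and 5p in Mir132.

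The order miR-132-5p, miR-212-3p, miR-132-3p, miR-212-5p held in 11 of 12 libraries. In SS replicate 13 the last pair was swapped. The ratio of miR-132-5p to miR-212-3p ran from 1.06 in MC replicate 16 to 2.11 in CS replicate 9, with a median of 1.69. The leading pair thus kept its order in every library, although nearly level in 1 of them. Within the shared seed family miR-212-3p was above miR-132-3p in every library, by 2.02 times in SS replicate 14 to 9.90 times in CS replicate 8, with a median of 6.91.

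miR-132-5p, the leading arm, had 3261, 3177 and 4542 CPM in SS replicates 12, 13 and 14, and 3746, 4371 and 2976 CPM in CS replicates 8, 9 and 10. It had 3318, 4251 and 3267 CPM in MS replicates 3, 4 and 23, and 1968, 2873 and 4775 CPM in MC replicates 16, 17 and 20. The groups overlapped in all 4 comparisons, and both the lowest and the highest of the 12 libraries were in MC. The group means ran from 3205 CPM ± 1433 (SD, n = 3) in MC through 3612 ± 554 in MS and 3660 ± 765 in SS to 3698 ± 699 in CS, and no neighbours in this order differed by more than their spread.

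miR-212-3p, which carries the miR-132-3p seed, had 1688, 2037 and 2659 CPM in the SS libraries and 3223, 2073 and 1843 CPM in the CS libraries, in the order of replicates given above. It had 1964, 2510 and 1886 CPM in MS and 1850, 2543 and 2307 CPM in MC. This was the steadiest member: its highest library, CS replicate 8, was 1.91 times its lowest, SS replicate 12. The group means of 2120 CPM ± 340 (SD, n = 3) in MS, 2128 ± 492 in SS, 2233 ± 353 in MC and 2380 ± 739 in CS differed by less than their spread.

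miR-132-3p had 254, 283 and 1316 CPM in SS and 325, 666 and 257 CPM in CS. It had 327, 402 and 335 CPM in MS and 236, 296 and 299 CPM in MC. SS replicate 14 stood apart at 1.98 times the next library, CS replicate 9, while the other 11 libraries spanned 2.82-fold. The group means were 277 CPM ± 35.5 (SD, n = 3) in MC, 355 ± 41.5 in MS, 416 ± 219 in CS and 618 ± 605 in SS. Only MC and MS, neighbours at the low end, did not overlap, with every MC library below every MS library. Of 780 miRNAs tested, 8.33% were likewise without overlap between MC and MS.

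miR-212-5p, the least abundant arm, had 69.3, 838 and 208 CPM in SS and 244, 208 and 80.8 CPM in CS. It had 49.1, 84.0 and 30.3 CPM in MS and 84.3, 167 and 50.6 CPM in MC. SS replicate 13 was 3.44 times the next library, CS replicate 8, and the other 11 spanned 8.04-fold. The lowest value rests on 315 counts in MS replicate 23, with a Wilson 95% interval of 27.1 to 33.9 CPM that covers counting error only. The group means were 54.5 CPM ± 27.2 (SD, n = 3) in MS, 101 ± 59.9 in MC, 177 ± 85.6 in CS and 372 ± 410 in SS, and no neighbours differed by more than their spread.

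**Figure D2:**
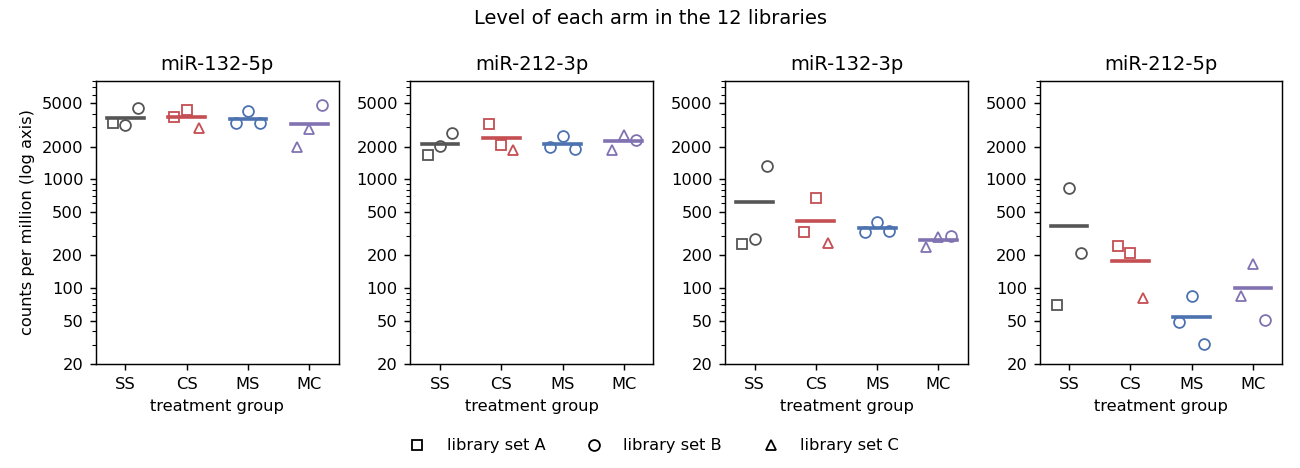
Level of each arm in CPM (log axis, same scale in all panels) by treatment group. Each symbol is 1 library, its shape gives the library set, and the bars are group means (n = 3). The values of miR-132-5p and miR-212-3p lie close together, while SS replicate 14 for miR-132-3p (1316 CPM) and SS replicate 13 for miR-212-5p (838 CPM) stand above the rest.

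The leading arms also varied less than most miRNAs. The SD of log2 CPM over the 12 libraries was 0.27 for miR-212-3p and 0.36 for miR-132-5p, and 4.61% and 15.9% of 347 miRNAs with a mean of at least 10 CPM had a lower SD. The minor arms were more variable, with an SD of 0.71 for miR-132-3p and 1.31 for miR-212-5p, above 72.3% and 93.7% of those miRNAs. The median SD was 0.55. In each hairpin the less abundant arm was therefore the more variable.

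The comparison of CS with SS asks what cocaine conditioning alone did to the cluster. All 4 members had a fitted log2 fold change below 0 and none passed the test. In edgeR's quasi-likelihood test over 780 miRNAs, 0 reached the threshold of 0.05 for the adjusted p (Benjamini-Hochberg) in CS vs SS (0% of those tested), 22 had an unadjusted p under 0.05 (2.82%), and DESeq2 called 0. The log2 fold change was -0.76 for miR-132-3p (SE 0.55, 95% interval -1.97 to 0.45), -0.23 for miR-132-5p (SE 0.23, interval -0.74 to 0.28), -0.12 for miR-212-3p (SE 0.22, interval -0.60 to 0.36) and -1.45 for miR-212-5p (SE 0.79, interval -3.19 to 0.29), each with an adjusted p of 0.994 in edgeR. The larger values belong to the arms in which 1 SS library was high. Without SS replicate 14 miR-132-3p was at 0.29, and without SS replicate 13 miR-212-5p was at 0.11. The members' median was -0.50, against 0.035 for all 780 miRNAs. No member was without overlap between CS and SS, where 13.2% of miRNAs had none. Within set A, with 2 CS libraries and 1 SS library, the difference in mean log2 CPM was 0.88 for miR-132-3p and 1.70 for miR-212-5p, opposite to -0.26 and -0.52 over all libraries. For miR-132-5p and miR-212-3p it was 0.31 and 0.61 in set A, and 0.017 and 0.14 over all libraries.

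The comparison of MS with SS asks what MET did without cocaine, and it held the largest difference of the cluster. The level of miR-212-5p in MS was below that in SS by a fitted log2 fold change of -3.13 (SE 0.84, 95% interval -4.98 to -1.28), with an unadjusted p of 0.00328 that did not pass the adjustment over 780 miRNAs (edgeR, adjusted p = 0.315). No miRNA passed in MS vs SS with edgeR (0%), 75 had an unadjusted p under 0.05 (9.62%), and DESeq2 called 13 of 773 (1.68%), miR-212-5p among them at -3.14 with an adjusted p of 0.0099. This value rested on SS replicate 13. Without that library edgeR gave -1.56, and DESeq2 gave -1.58 with an adjusted p of 0.451 and called 0 miRNAs. SS replicates 13 and 14 lay above all MS libraries and SS replicate 12 lay among them. Within set B, where all 3 MS libraries and 2 SS libraries fall, the difference in mean log2 CPM was -3.06, against -2.20 over all libraries, and 1 of these 2 SS libraries was replicate 13. Some markers of other tissue moved with this comparison: the sums were higher in every MS library than in any SS library for endothelium (7669 to 9877 against 6580 to 7375 CPM), leukocytes and microglia (26.9 to 35.8 against 12.3 to 19.8), red blood cells (2558 to 3961 against 1492 to 2210), liver (69.4 to 2494 against 11.2 to 58.8) and muscle (34.5 to 86.1 against 26.2 to 31.0). The sums overlapped for choroid plexus (1667 to 2462 in MS, 1625 to 2201 in SS) and oligodendrocytes (195 to 714 in MS, 152 to 883 in SS). Of all 780 miRNAs, 22.8% were without overlap in CPM between MS and SS. The part of the markers in the difference was not tested.

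The other arms were closer to SS. The log2 fold change in MS vs SS was -0.99 for miR-132-3p (SE 0.55, 95% interval -2.21 to 0.22, edgeR adjusted p = 0.605), -0.26 for miR-132-5p (interval -0.77 to 0.25, adjusted p = 0.784) and -0.25 for miR-212-3p (interval -0.74 to 0.23, adjusted p = 0.781). Without SS replicate 14 miR-132-3p was at 0.070. The median was -0.63 over the members and -0.032 over all miRNAs. No member was without overlap in CPM between MS and SS, whereas 22.8% of all miRNAs were. The intervals leave room for a change of about 1 log2 unit or more in miR-132-3p, but not in miR-132-5p or miR-212-3p.

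The comparison of MC with CS asks what MET did in mice that received cocaine. No member passed, and none had an interval clear of 0. In edgeR 0 of 780 miRNAs were called in MC vs CS (0%), 58 had an unadjusted p under 0.05 (7.44%), and DESeq2 called 0. The log2 fold change was -0.45 for miR-132-3p (95% interval -1.66 to 0.76, edgeR adjusted p = 0.723), -0.13 for miR-132-5p (-0.64 to 0.38, adjusted p = 0.819), 0.080 for miR-212-3p (-0.40 to 0.56, adjusted p = 0.904) and -0.62 for miR-212-5p (-2.34 to 1.09, adjusted p = 0.723). The median was -0.29 over the members and 0.079 over all miRNAs, and no member was without overlap, against 5% of all miRNAs. Within set C, with 2 MC libraries and 1 CS library, miR-212-5p was 0.55 higher in mean log2 CPM in MC, where it was -0.84 over all libraries. The fit with library set as a covariate gave -1.31 for it, and leaving out 1 library gave -0.93 (without MC replicate 17) to -0.25 (without MC replicate 20).

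The comparison of MC with MS asks what cocaine did in mice that received MET. miR-132-3p was the 1 member without overlap, with 236 to 299 CPM in MC and 327 to 402 CPM in MS, and 8.33% of the 780 miRNAs were likewise without overlap. Its fitted log2 fold change was -0.22 (95% interval -1.42 to 0.99, edgeR adjusted p = 0.921), and the difference in mean log2 CPM was -0.36 over all libraries and -0.24 in set B, with 1 MC library. The interval of the fit thus included 0 although the libraries separated. In edgeR 0 miRNAs were called in MC vs MS (0%), 65 had an unadjusted p under 0.05 (8.33%), and DESeq2 called 0. miR-132-5p was at -0.10 (interval -0.61 to 0.41, adjusted p = 0.909), miR-212-3p at 0.21 (-0.27 to 0.69, adjusted p = 0.789) and miR-212-5p at 1.05 (-0.67 to 2.78, adjusted p = 0.715). For miR-212-5p the difference in mean log2 CPM was 0.84 over all libraries and 0.016 in set B. The median was 0.054 over the members and 0.047 over all miRNAs.

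**Figure D3:**
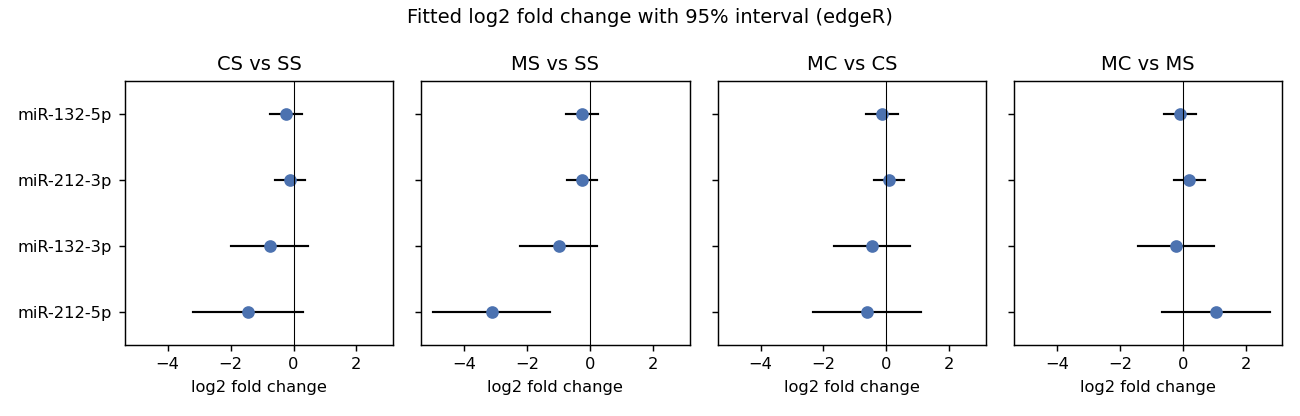
Fitted log2 fold change of each arm (points) with its 95% interval (lines) in the 4 pairwise comparisons, from edgeR's quasi-likelihood fit over 780 miRNAs. The interval of miR-212-5p in MS vs SS, from -4.98 to -1.28, is the only one clear of 0, before adjustment for the number of miRNAs.

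Whether cocaine acted differently with and without MET was tested as the interaction, the log2 fold change in MC vs MS minus that in CS vs SS. It was 2.50 for miR-212-5p (SE 1.12, 95% interval 0.052 to 4.95), with an unadjusted p of 0.0461 and an edgeR adjusted p of 0.804. The value was 0.93 without SS replicate 13. The interaction was 0.54 for miR-132-3p, 0.13 for miR-132-5p and 0.33 for miR-212-3p, with edgeR adjusted p-values of 0.871, 0.923 and 0.869. No miRNA was called (0%), 34 had an unadjusted p under 0.05 (4.36%), and DESeq2 called 0. These comparisons share groups, so the values for a member are not independent of each other.

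In the test of any difference among the 4 groups the adjusted p in edgeR was 0.593 for miR-132-3p and miR-212-5p, 0.806 for miR-132-5p and 0.878 for miR-212-3p. The unadjusted edgeR p was 0.0131 for miR-212-5p, 0.174 for miR-132-3p, 0.470 for miR-132-5p and 0.684 for miR-212-3p. No miRNA passed (0%), 59 had an unadjusted p under 0.05 (7.56%), and DESeq2 called 13 of 486 (2.67%), with miR-212-5p at an adjusted p of 0.0367 and at 0.654 without SS replicate 13. An exact permutation test of the share of the library on each member gave p = 0.831 for miR-132-3p, 0.813 for miR-132-5p, 0.928 for miR-212-3p and 0.169 for miR-212-5p (adjusted over the 4 members, 0.928, 0.928, 0.928 and 0.677). When libraries were exchanged only within sets, the exact p was 0.959, 0.570, 0.781 and 0.248. After adjustment, group differences were thus not detectable for the cluster by edgeR or the exact tests with 3 pools a group. Without SS replicate 12 the exact permutation p of the miR-212-5p share was 0.0312 (adjusted 0.125).

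The balance of the arms does not depend on library depth or scaling, because both arms are counted in the same library. For miR-132 the 5p arm exceeded the 3p arm by 3.45 times in SS replicate 14 to 16.0 times in MC replicate 20. For miR-212 the 3p arm exceeded the 5p arm by 2.43 times in SS replicate 13 to 62.2 times in MS replicate 23, with a median of 22.4. By counts on the mature entries, the 2 hairpins thus favoured opposite arms in every library. Among 78 hairpins with both arms at a mean of at least 10 CPM, 42 had the 5p arm higher on average. The SD of log2 (5p/3p) over the libraries was 0.56 for miR-132, near the median of 0.54 over the hairpins, and 1.23 for miR-212, above 89.7% of them.

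The mean log2 (5p/3p) of miR-132 was 3.45 ± 0.49 in MC, 3.34 ± 0.058 in MS, 3.26 ± 0.47 in CS and 2.99 ± 1.04 in SS (SD, n = 3). The exact permutation test among the 4 groups gave p = 0.890. For miR-212 it was -5.39 ± 0.53 in MS, -4.63 ± 0.81 in MC, -3.85 ± 0.61 in CS and -3.19 ± 1.71 in SS (SD, n = 3). Every MS library was below every SS library, and a separation in either direction held for 29.5% of the 78 hairpins in MS vs SS. Neither hairpin of the cluster separated the groups in CS vs SS, MC vs CS or MC vs MS, where 12.8%, 14.1% and 6.41% of the hairpins did. The exact permutation p among the 4 groups was 0.109 (0.436 adjusted over 4 ratios, 0.157 within sets), and 0.0191 without SS replicate 12 (adjusted 0.0764). Neither the ratio of the 3p arms (exact p = 0.572, adjusted 0.762) nor that of the 5p arms (exact p = 0.237, adjusted 0.475) passed the exact test among the groups. The ratio of miR-132-3p to miR-212-3p was lower in every MC than in every MS library. That of miR-132-5p to miR-212-5p was higher in every MS than in every SS library. How often other pairs of miRNAs separate in this way was not tested.

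**Figure D4:**
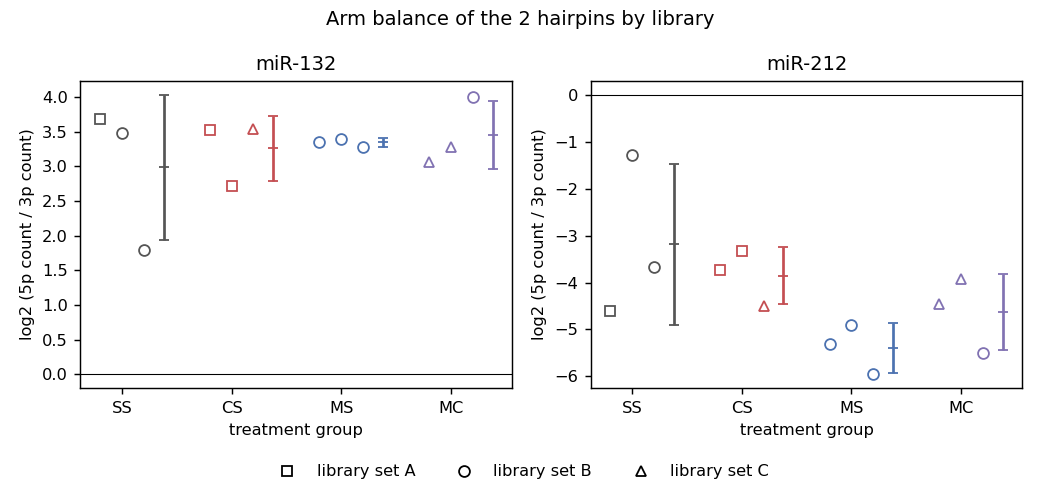
log2 of the 5p count over the 3p count for the miR-132 and miR-212 hairpins, by treatment group. Symbols are libraries, with the library set as shape, and dashes with error bars are group means ± SD (n = 3). miR-132 stays above 0 and miR-212 below 0 in all 12 libraries, and the miR-212 values of MS lie below those of SS.

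Reads could also be counted on the mir-132 precursor family, an entry for precursors as a whole, in place of a mature arm. Whether this entry also includes reads of the miR-212 hairpin was not tested. The entry held 278 to 2925 CPM, a 10.5-fold range, and 6.29% to 29.6% of all counts on the cluster. It followed the library set closely: it was at 509 to 1496 CPM in set A, 1543 to 2925 in set B and 278 to 403 in set C, and it was itself 1 of the 125 families from which the sets were formed. Its group means were 747 CPM ± 707 in MC, 1071 ± 594 in CS, 1889 ± 1244 in SS and 2026 ± 421 in MS (SD, n = 3), with an exact permutation p of 0.214 among groups and 0.370 within sets. The 4 members together had 4138 to 8726 CPM, or 0.738% to 1.33% of miRNA counts. Their summed share gave an exact permutation p of 0.825, and 0.644 with the family entry added. How reads were divided between the arms and the family entry in each library was not tested as a source of the differences between libraries. Nor was its effect on the order and ratios of the arms tested, which hold for the mature entries only. For scale, miR-132-3p itself had 236 to 1316 CPM.

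**Figure D5:**
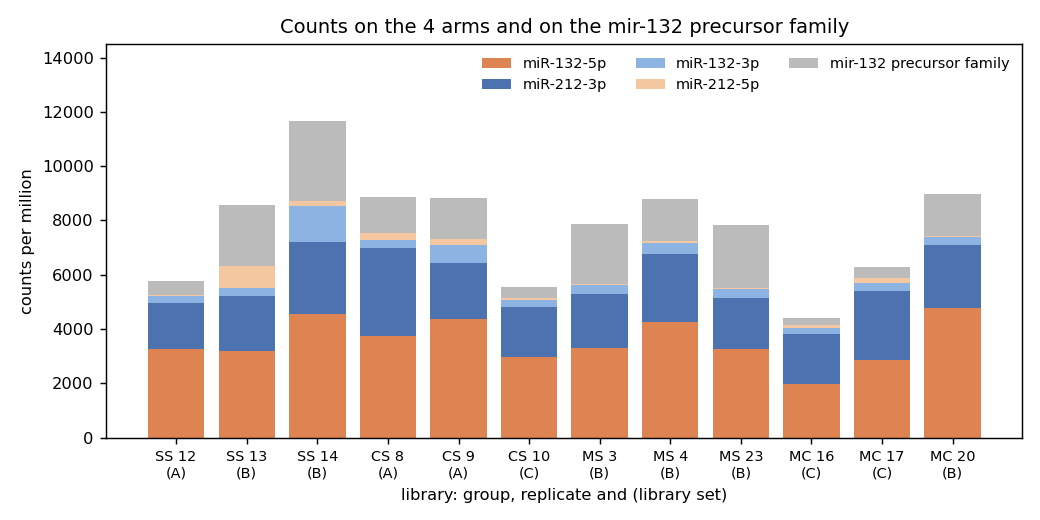
CPM on the 4 arms and on the mir-132 precursor family, stacked for each of the 12 libraries, with the library set in brackets. The family entry is smallest in the 3 libraries of set C (278 to 403 CPM) and largest in set B (1543 to 2925 CPM), and the highest stack is that of SS replicate 14.

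Because the libraries were cut into sets, relations between members were taken within the 6 libraries of set B. These come from 3 treatment groups and share their scaling by TMM (the trimmed mean of M-values, edgeR's library factor). Between the 3p arms Pearson's r was 0.81 (exact permutation p = 0.0444, adjusted over 6 pairs 0.125) and Spearman's rho 0.60 (exact permutation p = 0.242). Without SS replicate 14 and MC replicate 20, the libraries farthest from the median, r was 0.60. With CPM from library totals r between the 3p arms was 0.71 and turned to -0.61 without SS replicate 14 and MS replicate 4. Between the 2 arms of miR-212 r was 0.81 (exact permutation p = 0.0389, adjusted 0.125), rho was 0.89 (exact permutation p = 0.0333, adjusted 0.20), and r was 0.87 without SS replicates 13 and 14. None of the 6 pairs passed the adjustment. With CPM from library totals, r between the arms of miR-212 was 0.21, so that this relation depended on the scaling. Between the 3p arms r changed less, from 0.81 to 0.71. Its turn to -0.61 came only with 2 libraries left out, which were not the same 2 as under TMM.

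The patterns most like those of the 3p arms over the 12 libraries were looked for among 341 miRNAs, as a description only, since the libraries compared span all 3 sets and share their scaling. The part of the sets in these likenesses was not tested. miR-433-5p (r = 0.82), miR-532-5p (r = 0.76) and let-7i-5p (r = 0.75) were nearest to miR-132-3p. miR-181b-5p (r = 0.86), miR-379-5p (r = 0.83) and miR-361-5p (r = 0.80) were nearest to miR-212-3p, and miR-379-5p is itself a miRNA of an activity-regulated cluster. With library totals in place of TMM, 1 of the 3 for miR-132-3p was retained.

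A list of 11 other miRNAs linked to neuronal activity was read from the same edgeR fit. All were tested and 0 were called in any comparison, as for all miRNAs (0%). In CS vs SS, MS vs SS, MC vs CS, MC vs MS and the interaction, 0, 0, 1, 2 and 1 of the 11 had an unadjusted p under 0.05, where 2.82%, 9.62%, 7.44%, 8.33% and 4.36% of all 780 miRNAs did. Their median log2 fold change was 0.0046, -0.068, -0.14, 0.015 and 0.013, beside 0.035, -0.032, 0.079, 0.047 and 0.061 over all miRNAs. In CS vs SS they ran from -0.46 for miR-485-5p to 0.39 for miR-381-3p, and in MS vs SS from -0.56 for miR-485-5p to 0.40 for miR-188-5p. In MC vs CS they ran from -0.55 for miR-381-3p to 1.38 for miR-485-5p (edgeR adjusted p = 0.577). In MC vs MS the ends were miR-188-5p, a miRNA of dendritic spines, at -1.19 and miR-485-5p, a regulator of presynaptic SV2A, at 1.48 (edgeR adjusted p = 0.561 for both).

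The 4 miRNAs on a list linked to cocaine in rodent brain, let-7d-5p, miR-124-3p, miR-181a-5p and miR-495-3p, were all tested and edgeR called 0 (0% of all miRNAs). Of the 4, 1 (miR-181a-5p) had an unadjusted p under 0.05 in MC vs CS, where 7.44% of all miRNAs did, and 0 in the other comparisons. miR-124-3p, the most neuronal of them, had the lowest log2 fold change in MC vs CS (-1.35, edgeR adjusted p = 0.577) and in MC vs MS (-1.50, adjusted p = 0.576), while miR-181a-5p was highest in MC vs CS at 0.52 and let-7d-5p in MC vs MS at 0.61. In CS vs SS they lay between -0.50 (miR-124-3p) and -0.29 (let-7d-5p), and in MS vs SS between -0.53 (let-7d-5p) and -0.044 (miR-495-3p). The fold changes of miR-124-3p stood beside the lower neuronal marker sum in MC given above, to which it contributes.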

How the data were processed

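Small RNA reads of 12 mPFC libraries were, per the study's methods, filtered for quality, adapters and length and mapped with AASRA, and per the labels mm10 and Bowtie were used. The authors deposited for every small RNA a count of reads without normalization, which was tested here, and a TPM value, which is the count divided by the library total and multiplied by 1000000 (within 0.005, and called CPM here). Groups and replicate numbers came from the sample labels. The members and lists were chosen with earlier results of these data known. miRNAs, mature or predicted, entered the fit when 3 or more libraries held 5 or more counts (780 of 1422). They were fitted in R 4.3.3 by the quasi-likelihood F-test of edgeR 4.0.16 (1 coefficient per group, TMM factors from miRNAs, library size the total count), with Benjamini-Hochberg adjustment and a threshold of 0.05. The SE is the log2 fold change divided by the root of F. Ratios (0.5 added to both counts) and shares were compared by exact permutation of the F statistic over 369600 groupings. Within library sets, deviations from the set means were compared over 540 groupings. Sets came from average-linkage clustering of 125 precursor families, with the tree cut at 3 clusters. scipy 1.17.1, pandas 2.3.3, numpy 2.4.6 and matplotlib 3.10.9 were used in Python 3.11.15. The steps were tested on simulated data. In simulated counts for CS vs SS, edgeR called 5.67% of miRNAs with a true log2 fold change of 1. It called 65.3% of those with 2 and 94% of those with 4, with 0, 5 and 9 false calls. Named are the members, the highest and lowest miRNA of each list and comparison, the 3 miRNAs most like each 3p arm, seed sharers and neighbours in level. Alternatives were DESeq2 1.42.0, other TMM factors, total counts, other filters, mature miRNAs alone, the libraries compared alone, set as a covariate and each library left out. Added after seeing the data were the summed share, the family entry and DESeq2 without SS replicate 13.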

Additional observations from a re-analysis of the deposited data

How the results depend on the processing

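No member passed edgeR's test under any setting tried. Among settings other than leaving out a library, 249 of the recomputed values were classed as the same, 10 as reversed, 4 as moved and 2 as newly past the threshold. With 1 library left out, 495 were classed as the same, 11 as reversed and 4 as moved. Exact test p-values have no direction and were judged by their side of the threshold only, and counts of calls as the same or moved. DESeq2 took miR-212-5p past the threshold in MS vs SS (-3.14) and among the 4 groups (adjusted p = 0.0367), and called 13 miRNAs in each. For MS vs SS 3 miRNAs were called with the 6 libraries alone, and 7 without MC replicate 16 (range 0 to 7 over libraries left out), with 3 among the 4 groups (range 0 to 3). DESeq2 without SS replicate 13 called 1 miRNA in MC vs CS and 1 among the 4 groups, and gave 0.13 for miR-212-5p in CS vs SS.

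Without TMM factors, which moved the median of all miRNAs by 0.27 in CS vs SS, 0.25 in MS vs SS and -0.33 in the interaction, the sign turned in CS vs SS for miR-132-5p (0.015) and miR-212-3p (0.16), in MC vs CS for miR-212-3p (-0.091), in the interaction for miR-132-5p (-0.19) and miR-212-3p (-0.086), and for the correlation of the 5p arms (-0.13). With library set as a covariate it turned for miR-132-5p in CS vs SS (0.049), miR-212-3p in MC vs CS (-0.016), and miR-132-3p (0.23) and miR-132-5p (0.23) in MC vs MS. The causes were not tested.

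Leaving out 1 library, miR-132-3p ranged from -1.33 to 0.29 in CS vs SS, -1.35 to 0.070 in MS vs SS, -0.67 to 0.11 in MC vs CS and -0.51 to 1.10 in the interaction. miR-132-5p ranged from -0.36 to 0.046 in MC vs CS, -0.32 to 0.047 in MC vs MS and -0.089 to 0.32 in the interaction. miR-212-3p ranged from -0.038 to 0.22 in MC vs CS, and miR-212-5p from -1.96 to 0.11 in CS vs SS and from -3.63 to -1.56 in MS vs SS. The libraries on which signs turned were SS replicates 13 and 14, CS replicate 9 and MC replicates 16, 17 and 20. No paired analysis was possible because the groups share no replicate numbers.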
